A study of Drosophila melanogaster with 2 samples.

Results

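The 8 genes described here encode the core of the JAK/STAT pathway of Drosophila melanogaster and were chosen by name for their roles. They are the ligand genes upd1, upd2 and upd3, the receptor gene dome, the kinase gene hop, the transcription factor gene Stat92E, the feedback inhibitor gene Socs36E and the phosphatase gene Ptp61F. They were set against all 13968 protein-coding genes on the chromosome arms. Each gene was given a window, made of its body plus 2 kb upstream, and a gene counted as occupied where the summit of a peak of the transcription factor GATAe lay in that window.

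In this pathway the secreted Unpaired proteins bind the transmembrane receptor Domeless, and the Janus kinase Hopscotch, which sits on the receptor, then phosphorylates Stat92E. Phosphorylated Stat92E forms dimers, enters the nucleus and binds palindromic sites. Socs36E is induced by the pathway and damps it at the receptor and kinase, and Ptp61F removes the activating phosphates. The pathway is known for its part in embryonic segmentation and, in the adult fly, for driving the division of intestinal stem cells after damage, while GATAe is a zinc-finger protein needed for the differentiation of the midgut.

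Flies of a GATAe-GFP strain made GATAe fused to enhanced green fluorescent protein, and their embryos, collected at 0 to 24 h, were the starting material. There was 1 group, of 2 biological replicates that the labels list as separate biosamples of the same line, so nothing here is a comparison between conditions and no test was run. Whether the line also keeps an untagged GATAe gene is not given in the sources used here. The labels' description names an antibody against GFP for the precipitation and their antibody field names GATAe. Whole embryos were used, so a site bound in few cells and a site bound weakly in many cells cannot be told apart.

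What the authors deposited is 8 lists of peaks, placed on dm6. The conservative list, which pairs the replicates and stops at an irreproducible discovery rate (IDR, an estimate of how many peaks as good or better would fail to recur, as a share) of 0.01, served as the main list and held 3047 peaks, 3032 of them on the arms. The second list of the whole series, from pooled reads, held 2947 peaks, and the replicates' own lists held 2479 for replicate 1 and 1822 for replicate 2. Ranked lists kept weaker candidates as well, from 22969 to 63150 a list. The number of reads behind each list is unknown. The signal value is the authors' own measure of the strength of each peak and was used only to describe and rank peaks within a list. The gene GATAe itself carried the highest signal of the main list, 958. Its strongest peak ranked 4 in replicate 1's list, with 449, and 1 in replicate 2's, with 501. The control was not analysed, so this does not test the tagged protein.

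The stretches of DNA on which the results turn are printed first, from the RefSeq copy of dm6, plus strand, 5′ to 3′. Each covers 50 bp on either side of a summit, lengthened where needed to take in words that touch the peak. Capitals mark the extended GATA word WGATAR, which is the core GATA with A or T before it and A or G after it, on either strand, and the palindromic STAT word TTCNNNGAA. The Socs36E stretches carry the highest signals of the 8 genes, both Stat92E stretches and the Ptp61F stretch are the other occupied genes, and the upd2 and upd3 stretches are the ligand peaks nearest to being counted.
Socs36E, strongest peak, chr2L:18147654-18147816: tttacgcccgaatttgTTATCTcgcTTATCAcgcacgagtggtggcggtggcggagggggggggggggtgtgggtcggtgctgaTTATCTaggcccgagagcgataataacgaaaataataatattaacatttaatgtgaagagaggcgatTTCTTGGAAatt
Socs36E, next peak, chr2L:18148935-18149181: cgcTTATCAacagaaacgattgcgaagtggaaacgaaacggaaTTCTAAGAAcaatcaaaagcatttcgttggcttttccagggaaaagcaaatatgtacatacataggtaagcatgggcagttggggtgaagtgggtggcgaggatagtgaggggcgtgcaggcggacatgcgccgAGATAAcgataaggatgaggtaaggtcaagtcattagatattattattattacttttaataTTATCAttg
Stat92E, strongest peak, chr3R:20549982-20550193: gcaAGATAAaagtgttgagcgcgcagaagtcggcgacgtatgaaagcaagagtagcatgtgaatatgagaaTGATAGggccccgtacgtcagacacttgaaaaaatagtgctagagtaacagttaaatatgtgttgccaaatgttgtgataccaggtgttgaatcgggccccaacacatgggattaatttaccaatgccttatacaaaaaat
Stat92E, overlapping peak, chr3R:20550299-20550419: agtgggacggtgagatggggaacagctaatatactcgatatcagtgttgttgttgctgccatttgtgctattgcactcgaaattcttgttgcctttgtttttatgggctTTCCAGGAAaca
Ptp61F, chr3L:1368359-1368459: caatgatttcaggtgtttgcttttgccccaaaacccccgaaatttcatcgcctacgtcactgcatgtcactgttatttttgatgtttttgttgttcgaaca
upd2, upstream of the window, chrX:18245330-18245430: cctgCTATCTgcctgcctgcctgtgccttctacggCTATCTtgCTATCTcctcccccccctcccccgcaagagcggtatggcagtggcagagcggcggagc
upd3, candidate, chrX:18282377-18282477: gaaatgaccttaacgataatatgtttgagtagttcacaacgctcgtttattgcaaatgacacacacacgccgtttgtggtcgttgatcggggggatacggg

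GATAe peaks lay in the genes of the transcription factor and of both inhibitors, and in none of those of the ligands, the receptor or the kinase. In the main list, 3 of the 8 genes (37.5%) held a summit, Stat92E, Socs36E and Ptp61F, against 19.0% of all protein-coding genes. Long windows catch more summits, and among the 5886 genes whose windows were between the shortest and the longest of the 8 (4.63 to 135 kb) the share was 28.6%. With 8 genes, a count of 3 is near that share, so the number of occupied genes is no result in itself. The same 3 genes were occupied in the pooled list, where the share of all genes was 17.7%, in replicate 1's list, at 17.5%, and in replicate 2's list, at 12.4%.

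All 5 genes without a summit lie on the X chromosome and all 3 with a summit lie on autosomes. The X genes also have the shorter windows, from 4.63 to 9.46 kb, while those of the autosomal genes run from 15.7 to 135 kb. Of the 583 X-linked protein-coding genes with windows in the range of these X genes, 17.7% held a summit, and of the 1161 autosomal genes in the range of the autosomal ones, 40.8% did. Chromosome and window length therefore go together here, and their parts cannot be told apart with 8 genes.

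The occupied genes differed in how many summits they held. Socs36E had 3, Stat92E had 2 that overlap each other, and Ptp61F had 1. Of all protein-coding genes, with window length not matched, 2.04% had 3 or more. In replicate 2's list Socs36E had 2. The 6 summits fell in 208 kb of window, 2.88 per 100 kb, against 2.20 per 100 kb over the arms. The value depends on single genes. Without Ptp61F, whose window makes up most of the length, it was 6.82 per 100 kb (5 summits in 73.3 kb), without Socs36E it was 1.56 (3 summits in 192 kb), below that of the arms, and without Stat92E it was 2.12. All 6 summits lay in introns, more than 500 bp from any annotated transcription start site (TSS), which was true of 38.1% of main-list summits. No summit of these genes lay in the window of any other protein-coding gene.

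**Figure D1:**
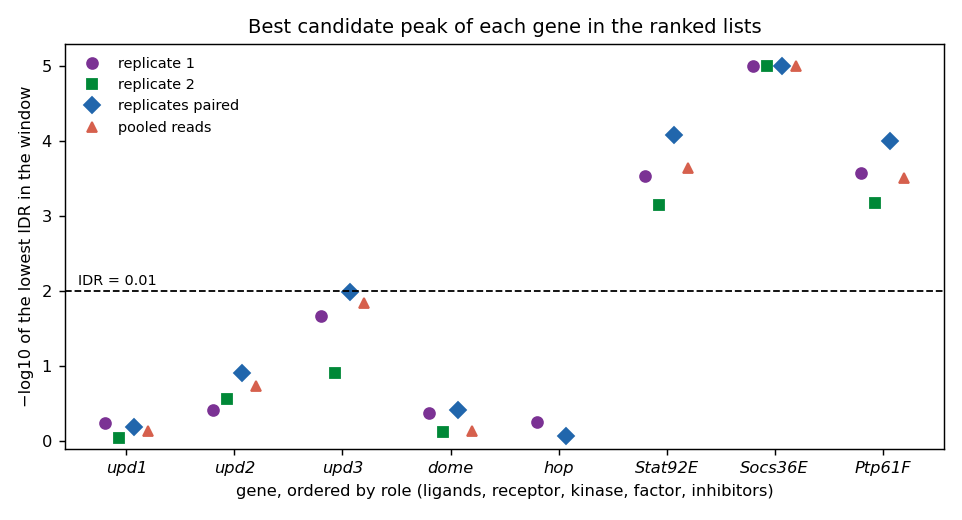
The lowest IDR of any candidate peak in each gene's window is plotted as −log10, with the 8 genes along the axis by role and 1 point for each of the 4 ranked lists that held a candidate (hop had none in the pooled list and in replicate 2's). Stat92E, Socs36E and Ptp61F lie above the dashed line at an IDR of 0.01 in every list, the Socs36E points lie at the lowest IDR the lists give, 1e-05, and upd3 comes to the line from below.

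The ligand genes stand on 1 stretch of the X chromosome, with upd2 (FBgn0030904, chrX:18240654-18243284, minus strand), upd3 (FBgn0053542, chrX:18277233-18284596, plus strand) and upd1 (FBgn0004956, chrX:18305354-18309291, minus strand) in that order. Across the 70.6 kb that hold their windows there were 2 main-list summits, and neither lay inside a window. The arms held 2.20 summits per 100 kb, so 2 in a stretch of this length is near the general density. Both were called in each replicate's own list.

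The summit nearer to upd2, which encodes a ligand made in the fat body as well as in the embryo, lay at position 18245380, which is 2096 bp upstream of the gene's 5′ end and 96 bp past the edge of its window. Its signal was 96.8, rank 1379 of 3047, with 53.2 in replicate 1 (IDR 0.00100) and 44.3 in replicate 2 (IDR 0.00528). This is the upd2 stretch printed above, in which 3 extended GATA words fall within 50 bp of the summit. The nearest protein-coding start was that of upd2, and a non-coding RNA gene, lncRNA:CR45607, starts within 500 bp. Counting any base of a peak in place of its summit would put this peak in the upd2 window and make 4 genes occupied.

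Farther on, a summit at 18261673 had a signal of 128, rank 781, with 69.6 in replicate 1 and 61.1 in replicate 2. It was intergenic, 18.4 kb upstream of upd2 and 15.6 kb upstream of upd3, and the nearest protein-coding start was that of CG15059, 2156 bp away. The peak lies between the start sites of upd2 and upd3, which are not neighbours, since CG15059 also lies between them. It was not assigned to either ligand gene by the window rule.

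Inside upd3, which encodes the ligand known for its release from damaged gut cells, the best candidate came just short of the threshold. It lay in intron 3, 5194 bp from the TSS, with its summit at 18282427, a signal of 58.1 and an IDR of 0.0103. In the pooled list its IDR was 0.0144, in replicate 1's ranked list the best upd3 candidate had a signal of 31.8 and an IDR of 0.0214, and in replicate 2's it had 28.7 and 0.123. For comparison, the weakest main-list peak of Socs36E entered with an IDR of 0.00982. The printed upd3 stretch holds 2 bare GATA cores and no extended word.

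Candidates of the other ligands were farther from the threshold. In the paired ranked list the best upd2 candidate within the window lay 790 bp upstream, with a signal of 36.8 and an IDR of 0.124, and 1 extended GATA word within 50 bp. Replicate 1 gave upd2 a best signal of 18.3 (IDR 0.383) and replicate 2 gave it 25.1 (IDR 0.274). For upd1, the founding ligand of the family, needed in the early embryo, the best candidate lay 356 bp upstream, with a signal of 31.8 and an IDR of 0.644. The replicates' best upd1 candidates lay elsewhere. Replicate 1's was 1824 bp upstream, with a signal of 17.3 (IDR 0.568). Replicate 2's was inside the gene, 2288 bp from its 5′ end, with 14.6 (IDR 0.894). No candidate of upd1 or upd2 thus came near the threshold in any ranked list. In all, 42 candidates of the paired ranked list fell in the 70.6 kb of the ligand stretch. The arms held 62335 in 137.5 Mb, so candidates are common everywhere and this number alone says little.

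**Figure D2:**
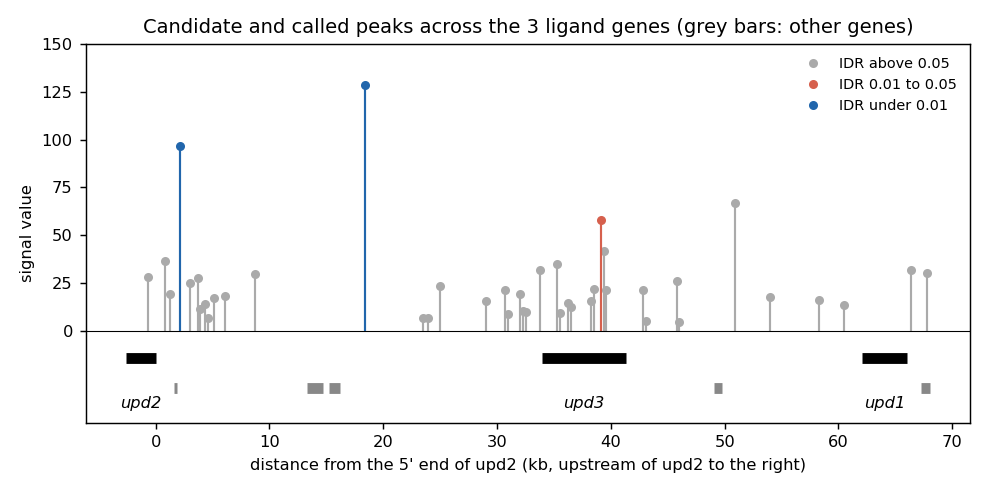
Candidate peaks of the paired ranked list across the ligand genes are drawn as vertical lines whose height is the signal value, against the distance from the 5′ end of upd2 in kb, with the ligand genes as black bars and other genes as grey bars. The 2 blue lines, at 96.8 and 128, are the peaks past an IDR of 0.01, and both stand between upd2 and upd3.

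Neither the receptor gene nor the kinase gene held a peak past the threshold. dome (FBgn0043903, chrX:19676061-19683518, minus strand), the gene of the receptor, had its best candidate 40 bp upstream of the TSS, with a signal of 32.8 and an IDR of 0.388 in the paired ranked list, and 6 bare GATA cores lay within 50 bp of that summit. In the replicates' own ranked lists the best dome candidate had a signal of 15.3 and an IDR of 0.415 in replicate 1, and 15.4 and 0.748 in replicate 2. hop (FBgn0004864, chrX:11360930-11368098, minus strand), the gene of the Janus kinase, had a best candidate with a signal of 18.7 and an IDR of 0.853, placed 1265 bp upstream and nearer to the start of dlg1, which was 302 bp away. Replicate 1's ranked list gave hop a best candidate at another place, 133 bp upstream, with a signal of 18.6 and an IDR of 0.548. Replicate 2's ranked list held none in the hop window. With ranked lists this long, presence alone says little, since 81.1% of all protein-coding genes had a candidate of the paired ranked list in their window.

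Loosening the threshold to an IDR of 0.05 added upd3 and no other gene, which made 4 of 8. The share of all protein-coding genes was 25.9%, with window length not matched. There were then 12 summits. Of the 6 added, 2 lay in Socs36E, 2 overlapping each other in Stat92E, 1 in Ptp61F and 1 in upd3. In Socs36E the added peaks had signals of 60.0 and 48.3, and the weaker lay 88 bp upstream of the TSS. The peak near the TSS had an IDR of 0.0436 in the paired ranked list, 0.556 in the pooled one, 0.599 in replicate 1's and 0.680 in replicate 2's, so it passed 0.05 in the paired list alone. At this threshold the windows held 6 summits in the pooled ranked list, 8 in replicate 1's and 5 in replicate 2's.

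Stat92E (FBgn0016917, chr3R:20535323-20552311, minus strand) encodes the only STAT protein of the fly. Its stronger peak, chr3R:20549963-20550322, had a signal of 130, rank 758 of 3047 and above 75.1% of the list, with 72.0 in replicate 1 (IDR 0.000293) and 50.2 in replicate 2 (IDR 0.000707). The replicates' summits were 48 bp apart. The peak sits in intron 1 of all 11 annotated transcripts, 2168 bp from the 5′ end of the gene and 964 bp downstream of an internal TSS.

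A second summit, 206 bp from the first, came from an overlapping peak with a signal of only 5.65 and an IDR of 8.21e-05. It was in the conservative list and not in the pooled list or those of the replicates, where 1 peak overlapped both. Counted as merged places, Stat92E has 1. A candidate farther into intron 1, 5265 bp from the nearer TSS, reached an IDR of 0.0239 with a signal of 48.3 in the paired ranked list. Its IDR was 0.516 in the pooled ranked list. Replicate 2's candidate there had 0.0610, and no ranked candidate of replicate 1 overlapped it.

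Socs36E (FBgn0041184, chr2L:18138675-18152417, minus strand) had the strongest binding of the 8 genes. Its 3 summits stand in intron 1, which is 9459 or 9628 bp long depending on the transcript, at 1600, 3341 and 4713 bp downstream of the gene's only annotated TSS. They span 3113 bp, with gaps of 1741 and 1372 bp, and the signal was higher the farther the summit lay from the TSS.

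The farthest peak, chr2L:18147616-18147805, was 190 bp wide and had a signal of 260, rank 150 of 3047 and above 95.1% of the list. Replicate 1 gave it 121 and replicate 2 gave it 132, both at an IDR of 1e-05, with summits 54 bp apart. That IDR is the lowest any of the 4 ranked lists gives and was shared by 534 of the 62931 peaks of the paired one. The middle peak, chr2L:18148896-18149255, had a signal of 214, rank 241, with 112 in replicate 1 and 97.6 in replicate 2 at the same IDR. Its summits were 15 bp apart. Both peaks were thus at the lowest IDR in both replicates.

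The peak nearest to the TSS, chr2L:18150637-18150996, was in the lower part of the list, with a signal of 69.8, rank 2356. Replicate 1 gave it 48.1 at an IDR of 0.00547. Replicate 2 gave it 25.9 at an IDR of 0.669 and did not have it in its thresholded list, while the pooled list held it at an IDR of 0.00805. No GATA core lay within 50 bp of this summit.

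**Figure D3:**
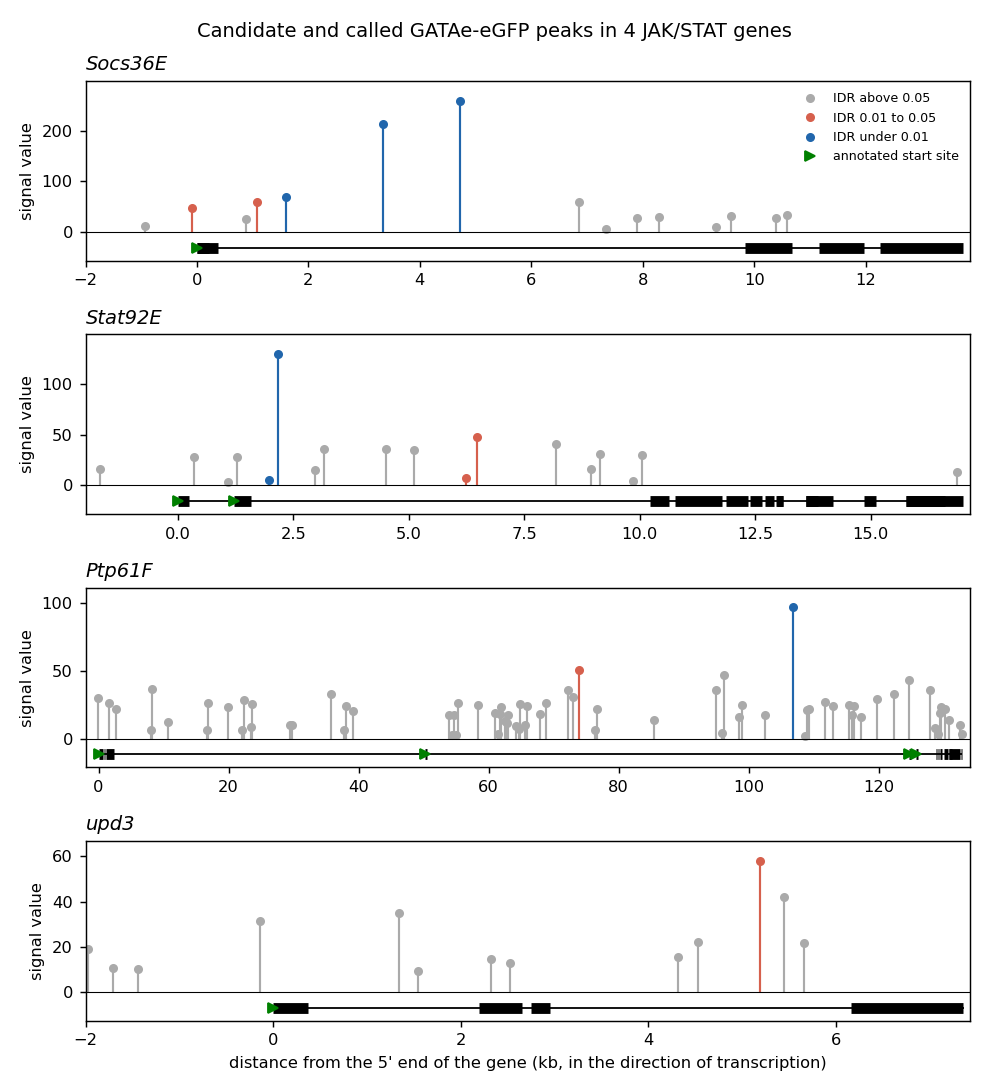
Candidate and called peaks of the paired ranked list in Socs36E, Stat92E, Ptp61F and upd3 are drawn as vertical lines whose height is the signal value, against the distance from the 5′ end of each gene in kb, with exons as thick bars and start sites as green arrowheads. The blue lines, past an IDR of 0.01, stand in intron 1 of Socs36E and Stat92E and alone far downstream in Ptp61F, and upd3 has none.

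Ptp61F (FBgn0267487, chr3L:1342493-1475257, minus strand), the gene of a tyrosine phosphatase that acts on the pathway, covers 133 kb and has 9 other protein-coding genes inside it. Its peak, chr3L:1368229-1368588, had a signal of 96.9, rank 1377 and above 54.8% of the list, with 62.4 in replicate 1 (IDR 0.000260) and 53.4 in replicate 2 (IDR 0.000656). The replicates' summits were 59 bp apart. The peak was thus reproducible and of middling strength.

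This peak lies far from the starts of Ptp61F. Its summit is 106848 bp from the 5′ end of the gene and 17810 bp upstream of the nearest TSS of Ptp61F, in introns of 2 of its 5 transcripts that are 78.3 and 126 kb long. The nearest protein-coding start was that of ru (roughoid, which encodes a rhomboid protease), 2219 bp away and so 219 bp outside the ru window. By the nearest protein-coding start, Ptp61F would be unoccupied and upd2 occupied, which again gives 3 genes.

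**Figure D4:**
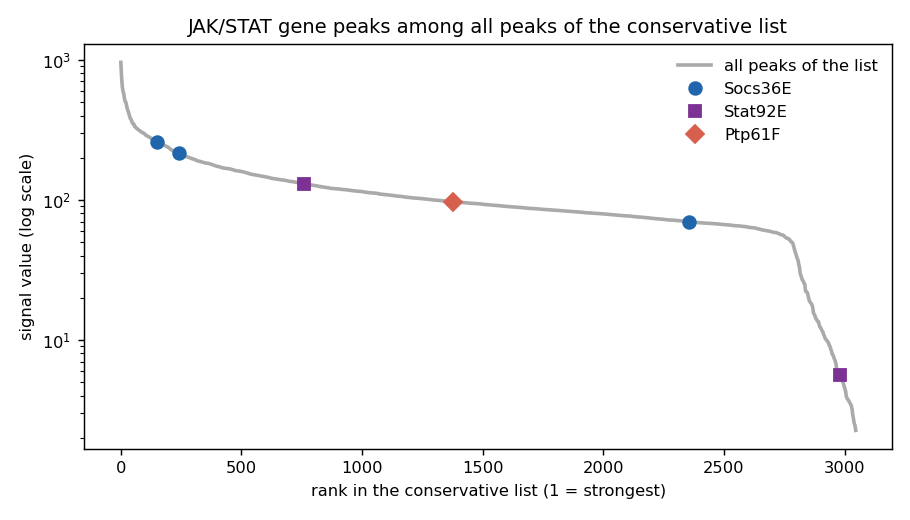
The signal value of each peak of the conservative list, on a log scale, is plotted against its rank, with the peaks of Socs36E, Stat92E and Ptp61F marked on the curve. Socs36E has points at 260, 214 and 69.8, Stat92E at 130 and 5.65, and Ptp61F at 96.9. The lowest point, at rank 2979, is the weak Stat92E peak that overlaps the stronger one. The others lie between ranks 150 and 2356.

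Among the 6 summits, those with an extended GATA word close by were in Socs36E. An extended GATA word lay whole within 50 bp of 2 of the 6 summits, both of Socs36E, against 46.0% of the 3032 main-list summits. The strongest Socs36E summit had 3 such words, and 3.40% of main-list summits had 3 or more. The middle Socs36E summit had 1, with 3 in the whole peak. A bare GATA core lay within 50 bp of 4 of the 6 summits, against 72.1% of the list. The strongest Stat92E summit had 1 bare core, its 2 extended words lay 87.5 and 155.5 bp from the summit, and the Ptp61F summit had none of either within 50 bp.

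Extended GATA words were frequent in windows with and without a peak. The windows held from 1.31 (hop) to 2.74 (Stat92E) extended GATA words per kb, against 1.96 per kb over the arms. The unoccupied upd2 window had 2.59 per kb and that of upd3 had 2.46, above the 2.10 of Socs36E and the 1.67 of Ptp61F. Of the 33 words in the Socs36E window 6 (18.2%) touched a main-list peak, and of the 52 of Stat92E 2 (3.85%) did, against 1.71% of words over the arms. None of the 225 words of Ptp61F touched a main-list peak, nor did any of the 11 to 23 words in each of the other 5 windows. Those 5 windows held no main-list summit, so few words there could touch a peak. The shares rise with how much of a window lies in peaks, which was not matched, so they show no preference for the words.

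**Figure D5:**
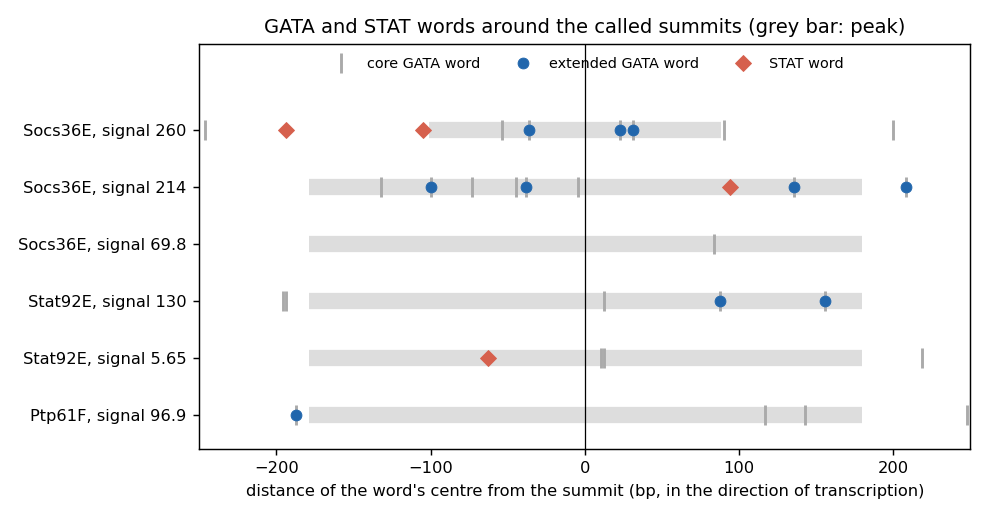
The positions of core GATA words (grey ticks), extended GATA words (blue circles) and STAT words (red diamonds) are plotted as distances in bp from each of the 6 main-list summits, in the direction of transcription, with the peak as a grey bar. The strongest Socs36E summit has 3 extended words within 50 bp and a STAT word at the peak's edge, and the Ptp61F summit has none within 50 bp.

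The window of Socs36E was rich in the word that Stat92E itself recognises. It held 20 STAT words, 1.27 per kb, against 0.320 per kb over the arms. The other 7 windows held between 0 (upd1) and 0.529 (dome) per kb, with 0.474 in Stat92E and 0.371 in Ptp61F. Of the 5886 protein-coding windows in the length range of the 8 genes, 4 (0.0680%), that of Socs36E included, had this density or more. The median was 0.287 per kb. In Socs36E, 14 of the 20 stand in intron 1, the intron that holds the 3 GATAe summits. That intron makes up 9459 or 9628 bp of the 15743 bp window, depending on the transcript. Of the 20 words, 3 lay within 250 bp of a summit, and the length of window within that distance was not matched. Neither count shows the words to be gathered at the summits. This look over whole windows was chosen after the data were seen, and a match is not a bound site.

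STAT words were also looked for close to the summits. The word lay whole within 50 bp of 0 of the 6 summits, against 1.75% of main-list summits, a share too low to set 0 of 6 apart, and inside the peak for 2 of the 6, against 7.68% of main-list peaks. Those 2 were the middle Socs36E peak, 94 bp from the summit, and the weak overlapping Stat92E peak, 63 bp from the summit. Another STAT word lay 105 bp from the strongest Socs36E summit and touched the peak's edge. All 3 words are in the printed stretches.

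Most of the 6 peaks, and most Socs36E candidates, were met in both replicates. Of the 6 peaks, 5 overlapped thresholded peaks of both replicates, as 46.5% of main-list peaks did, and the exception was the Socs36E peak nearest to the TSS. Both Stat92E peaks met the same peak of each replicate. Among all candidates of the ranked lists, those past the threshold included, 9 of 11 Socs36E candidates of replicate 1 and 9 of 11 of replicate 2 (81.8% of each) overlapped the other replicate. In Stat92E the counts were 10 of 13 for replicate 1 (76.9%) and 11 of 16 for replicate 2 (68.8%). Over all 8 genes the shares were 41 of 69 candidates of replicate 1 (59.4%) and 48 of 116 of replicate 2 (41.4%), against 54.4% and 32.2% of all ranked candidates of replicates 1 and 2 on the arms. For upd1 and hop no candidate of either replicate overlapped the other.

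Shares of occupied genes around the pathway were near that of genes in general, with window length not matched. Of 13 regulators, 3 (23.1%) held a main-list summit, and of 11 genes known to respond to the pathway, 3 (27.3%) did, against 19.0% of protein-coding genes. The regulators were apt (apontic, a nuclear protein that limits Stat92E in border cells) with a strongest signal of 109, E(bx) (a subunit of the chromatin remodeller NURF) with 106, and Cdk4 (the partner of cyclin D) with 74.3. The E(bx) summit lay in mthl14, 893 bp from the nearest E(bx) TSS. Each of these regulators was occupied in the list of 1 replicate only, apt and Cdk4 in that of replicate 1 and E(bx) in that of replicate 2.

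The occupied responding genes were so in the lists of both replicates. zfh1, a zinc-finger homeodomain gene that maintains stem cells of the testis, had a strongest signal of 217 in the main list, 101 in replicate 1 and 106 in replicate 2, and both of its summits had an extended GATA word. Diap1, the gene of an inhibitor of cell death (thread), had 198 in the main list, 98.8 in replicate 1 and 98.3 in replicate 2, and its strongest summit lay 86 bp from the TSS with no extended word. chinmo, a BTB zinc-finger gene, had 80.2 in the main list, 46.8 in replicate 1 and 43.9 in replicate 2, the strongest of its 5 summits. The other regulators (et, Su(var)2-10, Socs16D, Socs44A, ken, Stam, Hrs, BRWD3, CycD and lwr) and responding genes (TotA, TotM, vir-1, slbo, Tep1, Tep2, eve and trh) held no main-list summit.

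The genes whose strongest peak ranked most like that of Socs36E were Pdp1, mbc and Nup98-96. Likeness was the Euclidean distance between rank percentiles over 3 lists (conservative, ranked replicate 1 and ranked replicate 2), among 2631 genes with a summit in each. Pdp1 was 0.104 percentile points away, with a signal of 259 in the main list. The others were 0.151 away and share a single peak, with a signal of 260.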

How the data were processed

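The assay was ChIP-seq of chromatin from whole embryos, sheared by sonication to 200 to 800 bp, per the labels. The authors deposited peak lists on dm6, per the labels, with a score that follows the IDR, a signal value per peak and, in the ranked lists, −log10 of the IDR. Which aligner and which peak caller were run is not given in the sources used here. The control experiment that the labels name was not analysed. Read depth is unknown, so no value has an interval for counting error.

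Peaks of the 8 genes had the same signal in every list of the whole series that held them. The replicates' own lists gave other signals, so these are set side by side with the series values. The ranked list that belongs to each thresholded list was found by containment, since 3047 of 3047 conservative peaks are in the paired ranked list. The annotation was that of Ensembl (release 115), with RefSeq sequence, and transposable elements and pseudogenes were left out. Coordinates are 1-based. All 8 genes, 13 regulators and 11 responding genes matched, 1 by an older symbol. Genes named beyond the 8 are up to 4 per list with a main-list summit, those most like Socs36E in rank, and those with a TSS nearer to a summit than the gene itself. The regulators and responding genes without a summit, lncRNA:CR45607 and the genes beside Stat92E are named outside this rule, after their values were seen.

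With 1 group no test was run. Counts are given beside the same count over all genes, summits or windows. The alternatives were other lists, thresholds, windows and words, and 1 replicate at a time. The backgrounds by chromosome, the STAT words over whole windows, the densities without the windows of Socs36E or Stat92E and the other ranked lists at an IDR of 0.05 were added after the data were seen, and the genes and lists were chosen with earlier results of these data known. The window and word steps were tested on simulated data. Python 3.11.15, numpy 2.4.6, pandas 2.3.3 and matplotlib 3.10.9 were used.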

Additional observations from a re-analysis of the deposited data

How the results depend on the processing

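Counts and densities stayed within 1.5 times the main value under the settings tried, apart from those given here. Occupied genes numbered 3 or 4 under every setting except summits within 1 kb of a TSS, where 1 gene, Stat92E, was left, with 2 summits. At an IDR of 0.05 there were 12 summits, or 5.77 per 100 kb, and 10 of the 24 regulators and responding genes had a summit. Over the arms the summits then rose from 3032 to 4714, and 25.9% of all protein-coding genes had one, with window length not matched. With 5 kb on both sides of each gene there were 11 summits and again 10 regulators and responding genes. The share of all genes with such windows was not computed, so these counts show no rise particular to the pathway. Summits with a GATA word numbered 4 for the bare core and 1 within 25 bp. Summits with a STAT word numbered 2 within 100 bp and 2 anywhere in the peak. Without the window of Ptp61F there were 6.82 summits per 100 kb, and without that of Socs36E 1.56. With either replicate alone there were 3 occupied genes, and 4 or 5 summits. The percentile of the strongest peak was 74.2 in the pooled list, 97.6 in replicate 1's ranked list and 97.9 in replicate 2's for Stat92E, 99.3 and 99.8 in the ranked lists of replicates 1 and 2 for Socs36E, and 53.0, 96.7 and 98.2 for Ptp61F. These lists differ in length, so the percentiles show no change in binding. No paired analysis was possible because there was 1 group. Peak lists give no read counts, so a gene without a summit is not shown to be unbound.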

Other observations

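Stat92E stood between other main-list peaks that its window did not take in. A peak 506 bp past its 3′ end, chr3R:20534637-20534996, had a signal of 154, above that of the peaks inside Stat92E, and its summit lay 113 bp from the start of MtnE, a metallothionein gene, with 2 extended GATA words. On the other side, 3 summits lay in DPCoAC, a mitochondrial carrier gene, at 2920, 3124 and 4146 bp upstream of Stat92E, with signals of 63.2, 18.5 and 99.9.

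In the ligand stretch, a candidate 50.9 kb from the 5′ end of upd2, between upd3 and upd1, had a signal of 67.0 but an IDR of 0.722, while the upd3 candidate with a signal of 58.1 had an IDR of 0.0103.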
